A study of Mus musculus with 18 samples.

Results

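The fibroblast growth factor (FGF) genes described here are 3 receptors, Fgfr1, Fgfr2 and Fgfr3, and 4 ligands, Fgf2, Fgf3, Fgf7 and Fgf18. They were taken by name, and all 7 were found among the 20275 genes of the mRNA count matrix. The matrix holds 56201 cells of fetal, newborn and adult C57B6/J mouse bone marrow in 9 droplet libraries, each with antibody-tag counts for the same cells. Hematopoietic progenitors (HPs), sorted as CD45+Lineage-c-Kit+, gave 2 libraries at embryonic day (E) 16.5 and 1 library for each of E18.5, postnatal day (P) 0 and adult. Stromal cells, sorted as CD45-Ter119-, gave 1 library at each of these stages. The mice carried no transgene or treatment in the labels, every library pooled cells of several mice, and for adult mice the study's methods give a range of weeks, not the age of these pools. Adult cells came from tibias, femurs, pelvis and spine and fetal cells from the skeleton without the head. Bones were crushed, stroma was released by collagenase from the fragments at fetal and adult stages, and red cells were lysed in adult but not fetal preparations, so stage cannot be told apart from the bones taken or from lysis. Collagenase is described for stroma and not for HPs, so compartment cannot be told apart from digestion.

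The HP libraries held 560 to 6208 cells and the stromal libraries 6267 to 14084, with a median of 6747 to 23292 UMIs (unique molecular identifiers, counts of captured mRNA molecules) per cell. The total count per library was between 13974733 and 194892476 UMIs. Ptprc, which encodes CD45, was detected in 42.8% to 83.6% of HP cells and in 0.015% to 0.078% of stromal cells. The study's methods state that contaminating blood cells were removed from its stromal data, and fewer stromal cells were deposited than it reports sequencing. The near absence of Ptprc in stroma therefore cannot show how well the sort worked. Of the 54831 distinct cell barcodes, 1102 occurred in more than 1 library. Cells with under 1000 UMIs made up 27.5% of E18.5 HPs, 17.0% of adult HPs and 10.4% of P0 stroma.

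FGFs are secreted or cell-bound ligands that act through receptor tyrosine kinases with heparan sulfate as a cofactor, and receptor activation is read out by feedback genes such as the Sprouty family and Dusp6. In the skeleton, FGFR3 is known as a brake on growth plate chondrocytes, FGFR1 and FGFR2 act in perichondrium and the osteoblast lineage, and FGF18 is a main ligand of developing cartilage and bone. FGF7 is a mesenchymal ligand for the IIIb splice form of FGFR2, and FGF2 binds several receptors and is stored in matrix. The 3′ counts do not separate the IIIb and IIIc receptor forms.

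The genes lie on 6 mouse chromosomes (RefSeq gene bounds, build GRCm38.p6, the files' mm10). Fgfr1 spans chr8:25518759-25575718, Fgfr2 chr7:130162451-130266808, Fgfr3 chr5:33721724-33737068, Fgf2 chr3:37348477-37410106, Fgf3 chr7:144838612-144843348, Fgf7 chr2:126034658-126091185 and Fgf18 chr11:33116970-33147400. Fgfr2 and Fgf18 are on the minus strand. RefSeq promoter windows of 300 bases, from 250 bases before to 50 after a gene's start, were matched for 6 of the 7 genes. Those of Fgf3 and Fgf18 are printed because these ligands were found on opposite sides of the sort. Capitals mark a match on either strand to AGATAA, a motif bound by GATA factors, or to the GC box GGGCGG, and TATAAA was searched as well.
Fgf3 (chr7:144838362-144838661, plus strand): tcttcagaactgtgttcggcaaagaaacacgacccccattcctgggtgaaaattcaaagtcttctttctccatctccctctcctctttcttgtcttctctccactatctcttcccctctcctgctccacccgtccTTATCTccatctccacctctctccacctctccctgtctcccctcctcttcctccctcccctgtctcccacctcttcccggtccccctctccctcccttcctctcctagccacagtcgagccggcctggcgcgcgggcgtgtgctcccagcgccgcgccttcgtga
Fgf18 (chr11:33147351-33147650, minus strand): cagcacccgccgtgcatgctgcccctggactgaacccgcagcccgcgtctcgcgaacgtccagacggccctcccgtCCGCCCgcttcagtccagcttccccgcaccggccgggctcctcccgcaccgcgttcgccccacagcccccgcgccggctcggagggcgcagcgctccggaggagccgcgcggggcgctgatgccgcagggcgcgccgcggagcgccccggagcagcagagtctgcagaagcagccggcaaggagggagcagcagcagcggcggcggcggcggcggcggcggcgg
The Fgf3 window held 1 match to AGATAA, read on the opposite strand, and none to GGGCGG. The Fgf18 window held 1 match to GGGCGG, also on the opposite strand, and none to AGATAA. Across all 32851 RefSeq windows, 11.2% held AGATAA 35.7% held GGGCGG and 13.6% held TATAAA, which neither printed window held. The Fgf18 window had 47 CpG dinucleotides, and 98.6% of windows had fewer, while the Fgf3 window had 14, with 63.7% of windows below it. No chromatin or methylation was measured here, so these letters describe the loci only.

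All 7 genes differed between the sorted compartments. Fgfr1, Fgfr2, Fgfr3, Fgf2, Fgf7 and Fgf18 were higher in stroma, and Fgf3 was higher in HPs. UMIs were summed per library, tested with edgeR's quasi-likelihood test with stage as a term, and called at a Benjamini-Hochberg adjusted p under 0.05 over all 17043 genes tested. The low-count filter kept genes with enough counts in either compartment. Fgfr2, Fgfr3, Fgf7 and Fgf18 had few UMIs in HPs and Fgf3 few in stroma, so they entered through the compartment where they were high. With no filter all 7 were still called. The background was high, since 31.1% of genes tested were called higher in stroma and 26.5% lower, 57.6% in all, with a median log2 fold change of 0.013 over all genes. In sums of this kind, fewer cells of a type and less RNA per cell cannot be told apart. Because each stage of stroma is 1 library, the test carries the spread between stages of the difference between compartments, and the spread between the E16.5 HP libraries. Nothing in it measures the spread between repeat pools of stroma or of later HPs.

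Fgfr1 was detected in every library. In CPM, the gene's UMIs scaled to a common library total, it was 121, 158, 184 and 217 in E16.5, E18.5, P0 and adult stroma. In HPs it was 18.3 and 7.70 for the E16.5 pair, and 10.1, 5.72 and 0.777 for the E18.5, P0 and adult libraries. With each cell weighted equally these were 22.3 and 10.2, and 25.1, 9.85 and 2.75. Adult HPs were the lowest library. The log2 fold change of stroma over HPs was 4.93 (SE 0.81, adjusted p = 0.00224, edgeR). A UMI of Fgfr1 was seen in 67.7% to 76.7% of stromal cells and in 0.735% to 23.4% of HP cells.

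Fgfr2 stood at 55.9, 63.2, 81.4 and 42.3 CPM in E16.5, E18.5, P0 and adult stroma. In HPs it was near the detection limit, with 4 and 11 UMIs for the E16.5 pair and 6, 4 and 4 for the E18.5, P0 and adult libraries. The P0 stromal library was the highest and the adult one the lowest, and no HP library exceeded 0.286 CPM. The log2 fold change was 9.55 (SE 0.56, adjusted p = 3.7e-05, edgeR).

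Fgfr3 was 68.9, 108, 65.4 and 112 CPM in E16.5, E18.5, P0 and adult stroma. The E16.5 HP pair held 0 and 12 UMIs, and the E18.5, P0 and adult HP libraries 24, 29 and 8, or at most 0.370 CPM. The E16.5 HP library with 0 UMIs has an upper limit of 0.264 CPM (exact Poisson 95% interval, counting error only). The log2 fold change was 8.89 (SE 0.46, adjusted p = 2.62e-05, edgeR). Of the stromal libraries, E18.5 and adult were high and E16.5 and P0 low, with no repeat libraries to set against this order. With each cell weighted equally the adult value was 70.6 and the E18.5 value 92.8.

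Fgf2 was 13.1, 19.3, 21.3 and 25.2 CPM in stroma from E16.5 to adult. In HPs it was 1.5 and 0.950 CPM for the E16.5 pair, and 0.139, 0.220 and 0.118 for the E18.5, P0 and adult libraries, with 7 to 91 UMIs behind each value. The log2 fold change was 6.24 (SE 0.81, adjusted p = 0.00085, edgeR). Both E16.5 HP libraries lay above the later HP libraries.

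Fgf7 was 5.52, 5.06, 6.42 and 15.9 CPM in E16.5, E18.5, P0 and adult stroma, and HPs had 1 to 7 UMIs per library. Its log2 fold change was 7.64 (SE 0.76, adjusted p = 0.000281, edgeR). The adult stromal library was apart from the other 3. Fgf18 in stroma was 14.0, 14.6, 19.0 and 17.4 CPM over the same stages, and HPs had 1 to 6 UMIs per library. Its log2 fold change was 8.59 (SE 0.37, adjusted p = 1.61e-05, edgeR).

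Fgf3, known from mouse mammary tumors and inner ear development, ran the other way. It was 2.15 and 10.7 CPM for the E16.5 HP pair, and 6.63, 3.61 and 2.84 for E18.5, P0 and adult HPs. The stromal libraries held 4, 2, 0 and 1 UMIs from E16.5 to adult, and the 0 at P0 has an upper limit of 0.0189 CPM by the same exact Poisson interval. The log2 fold change was -8.28 (SE 0.93, adjusted p = 0.000462, edgeR). The authors' removal of contaminating blood cells from stroma may enter this difference, and its part was not tested.

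**Figure D1:**
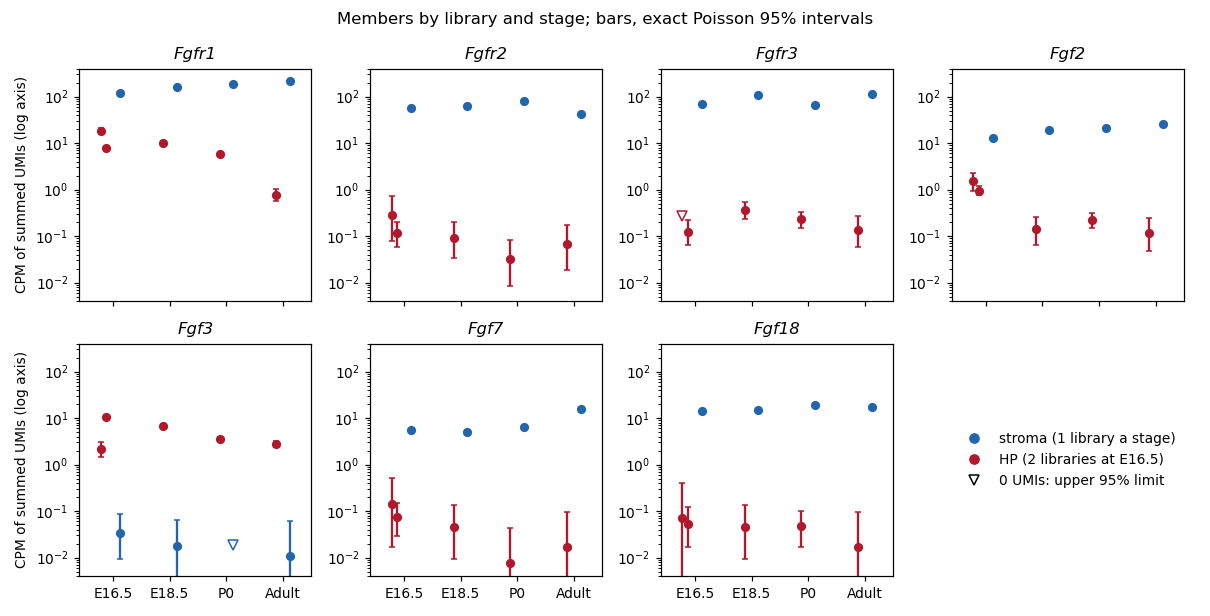
CPM of the 7 genes on log axes by stage, with stroma in blue and HPs in red, bars for exact Poisson 95% intervals of counting error, and open triangles for upper limits at 0 UMIs. Stroma lies above HPs for every gene but Fgf3, for which the stromal libraries hold 0 to 4 UMIs.

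The rest of the pathway was followed through 36 listed genes, of which 33 were in the matrix and 26 could be tested. In stroma 20 of the 26 were higher and 0 were lower, beside 31.1% higher and 26.5% lower over all genes tested. A gene could be among the 26 through its counts in a single compartment. Among receptors and co-receptors, Fgfr4, Fgfrl1 and the co-receptor Kl were all higher (3 of 3 tested). Of the ligands, 6 of 9 tested were higher, among them Fgf1 (log2 fold change 6.29), Fgf9 (5.64), Fgf10 (7.98) and Fgf16 (7.54). Of the feedback and target genes, 9 of 10 were higher, for example the feedback inhibitors Spry4 (3.95) and Il17rd (7.14). The exception was Dusp6, an ERK phosphatase, at -0.62 (adjusted p = 0.27, edgeR). The adaptors Frs2 and Frs3 were higher (1.23 and 1.81), and Fgfbp1 and Fgfbp3, which encode FGF-binding proteins, were not called.

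Within stroma, the cluster codes deposited with the cells were used as groups, and those with at least 50 cells are described (65 groups of library and code). The codes were made from the same mRNA counts, so differences between them carry no test. Codes of the 3 main kinds are called here by their letters and by markers. C-numbered codes had the cartilage proteoglycan gene Acan in 93.3% to 100% of their cells. F-numbered codes were mixed, with Pdgfra in 38.3% to 94.9% of cells from E16.5 to P0 and 13.4% to 94.3% in the adult, and Acan in 16.8% to 95.3%. The adult CARs code had the niche genes Cxcl12, Lepr and Kitl in 99.7%, 91.4% and 93.6% of its cells. The cartilage collagen Col2a1 was in at least 81.0% of cells of every C- and F-numbered code. It was also in 67.2% to 100% of cells of the endothelial codes (ECs from E16.5 to P0, AECs and SECs in the adult), so its detection did not tell codes apart. Its level did, with endothelial codes at 25.6%, 6.25%, 28.1% and 5.66% of the library level from E16.5 to adult. The endothelial codes are given below for comparison, and their own FGF transcripts were not told apart from free RNA of other cells.

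Fgfr3 was highest in a C-numbered code in each stromal library. It reached 189 CPM in C5 at E16.5, 221 in C5 at E18.5 and 149 in C5 at P0, and in the adult 276 in C10, 251 in C9 and 234 in C11. C5 is marked by the prehypertrophic genes Ihh, in 61.5%, 77.8% and 36.4% of its cells from E16.5 to P0, and Panx3, in 77.8%, 87.8% and 49.1%. In the adult, Panx3 was in 92.9% of C10 and 21.4% of C9 cells, and Ihh in 29.9% and 2.43%. C-numbered codes held 93.1%, 93.4%, 87.4% and 77.0% of stromal Fgfr3 UMIs from E16.5 to adult, while making up 50.2%, 61.4%, 43.1% and 17.5% of cells. The adult codes C9, C10 and C11 had medians of 19966, 36462 and 37729 UMIs per cell against 11810 in the whole library. The part of depth in the gap between UMI shares and cell shares was not tested at any stage. A UMI of Fgfr3 was found from E16.5 to P0 in 87.0%, 95.8% and 86.6% of C5 cells and in 7.04%, 10.6% and 20.6% of EC cells, at median depths of 21988, 31761 and 25229 UMIs in C5 and 10893, 9992 and 10797 in ECs.
In the endothelial codes Fgfr3 stood at 25%, 18.7%, 51.3% and 24.9% of the whole library's level from E16.5 to adult. Acan in the same codes stood at 22.4%, 7.36%, 26.9% and 15.0%. At E16.5 the intervals for the Fgfr3 and Acan percentages overlapped (14.0% to 41.2% and 19.3% to 26.0%), with 15 Fgfr3 UMIs in 71 cells. In the other 3 libraries the Fgfr3 intervals lay above those of Acan. The fibroblast matrix gene Dcn gave another order. It stood at 17.8% at E16.5 and 22.5% at P0, below Fgfr3, and at 30.3% at E18.5, above it. The adult Dcn value was also above that of Fgfr3 (interval 29.6% to 30.5%). Only at P0 did the Fgfr3 interval lie above that of Dcn, and at the other stages the intervals overlapped. The part of free RNA in the endothelial values was not tested.

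Fgfr2 followed other codes. It was highest in F2 at E16.5 (128 CPM), in C2i at E18.5 (140) and P0 (172), and in CARs in the adult (224). F2 carried the tendon and fibrous gene Scx in 64.1%, 69.5% and 60.2% of its cells and Runx2, a regulator of the osteoblast lineage, in 51.4%, 43.7% and 51.9% from E16.5 to P0. Adult Osteo, with the bone matrix gene Bglap in 80.1% of cells, had 118 CPM of Fgfr2, and adult F9, an F-numbered code with Acan in 95.3% and Sox9 in 92.2% of cells, had 114. The adult C-numbered codes were low, at 31.1 in C9, 15.7 in C11 and 9.44 in C10. C-numbered codes held 77.9%, 77.4% and 74.5% of Fgfr2 UMIs from E16.5 to P0 and 14.8% in the adult.

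Over all 65 stromal groups the CPM of Fgfr2 and Fgfr3 rose together (Spearman's rho 0.66), but the sign differed between kinds of code. Among the 20 F-numbered groups rho was 0.86. Among the 20 C-numbered groups it was -0.97, and -0.95 among the 17 of them from E16.5 to P0. In E18.5 stroma, for example, C5 had 221 CPM of Fgfr3 and 35.4 of Fgfr2, and C2i had 70.9 and 140. At P0, C5 had 149 and 75.8, and C2ii had 40.5 and 154. Fgfr1 went with Fgfr2 rather than Fgfr3 in C-numbered groups, with rho 0.65 against Fgfr2 and -0.61 against Fgfr3. These are descriptions over groups that share libraries and were defined from the same counts.

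**Figure D2:**
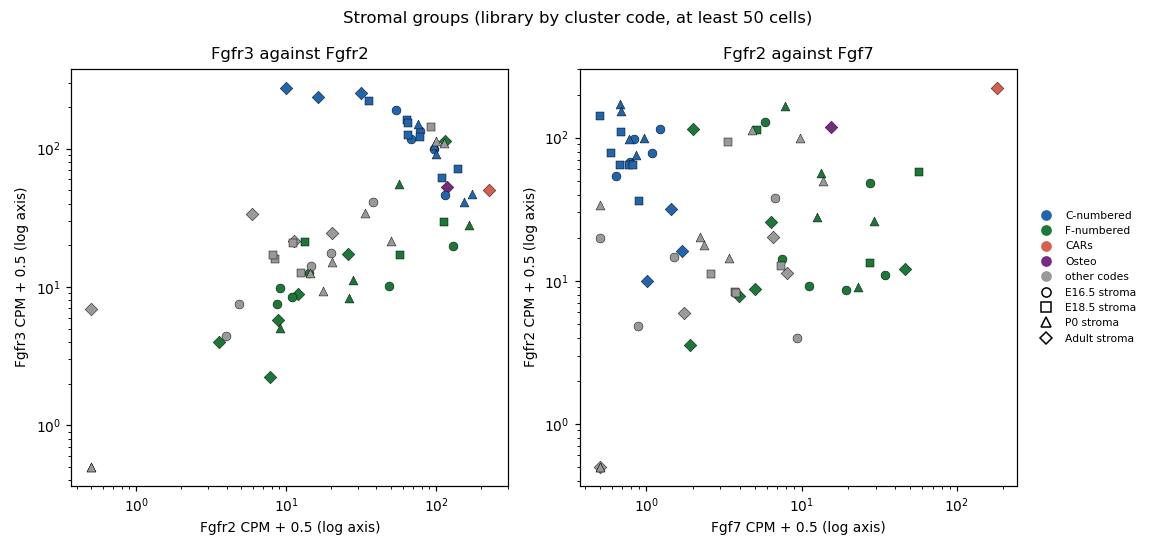
Each point is 1 of the 65 stromal groups of library and cluster code, on log axes of CPM plus 0.5, with colour for the kind of code and shape for the stage. On the left, Fgfr3 against Fgfr2 runs downward among the blue C-numbered groups and upward among the green F-numbered ones, and on the right the adult CARs group stands alone at high Fgf7 and high Fgfr2.

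Of the 3 receptors, Fgfr1 was detected in the largest share of cells in each stromal library. By code it was highest in F6 at E16.5 (354 CPM, a code with Kitl in 63.6% of cells), in C7 at E18.5 (261), in F2 at P0 (280), and in Osteo (545) and P1 (502) in the adult. Adult P1 is marked by Pax7, the muscle satellite cell gene, in 78.7% of its 122 cells. The fetal and newborn codes richest in Pax7 had much less Fgfr1, at 63.9 in P1i at E16.5, 117 in P1 at E18.5 and 114 in P3 at P0, although Pax7 was in 63.4%, 64.0% and 53.6% of their cells. The same codes led for Fgfr4 among the other receptors, with 89.6, 124, 110 and 228 CPM of Fgfr4 from E16.5 to adult. The Ihh-rich code C5 was among the low ones for Fgfr1, with 51.8, 39.3 and 80.8 CPM from E16.5 to P0, and C10 in the adult had 55.0. Endothelial codes had 39.3 to 96.5 CPM.

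**Figure D3:**
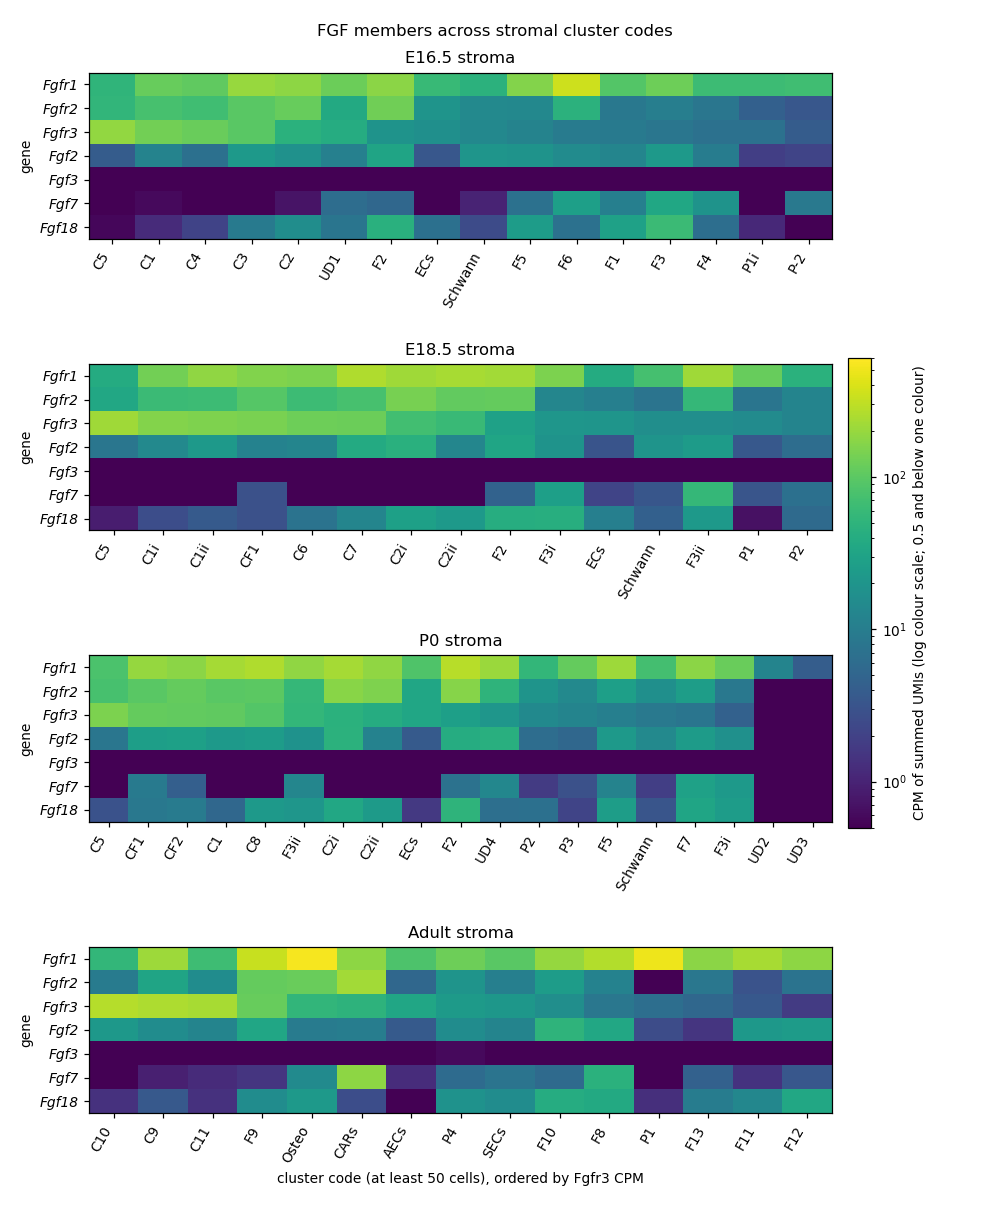
Heat maps of CPM on a log colour scale, with the 7 genes in rows and the stromal cluster codes of each library in columns, ordered by Fgfr3. Fgfr3 fades from the C-numbered codes on the left, Fgf7 and Fgf18 are brightest in F-numbered codes and, for Fgf7, in adult CARs, and the Fgf3 row is dark throughout.

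Fgf7 was low in C-numbered codes, which held 4.03%, 3.16%, 3.04% and 1.64% of its UMIs from E16.5 to adult. From E16.5 to P0 88.1%, 90.9% and 90.0% of its UMIs were in F-numbered codes, led by F3 at E16.5 (33.8 CPM), F3ii at E18.5 (56.9) and F7 at P0 (28.8). F3 carried the fibroblast genes Dpt in 72.4% and Pdgfra in 75.4% of its cells. In the adult, CARs had 182 CPM (95% interval 167 to 198) and F8, with Dpt in 92.7% of cells, had 46.3. CARs were 5.73% of adult stromal cells and held 37.3% of adult Fgf7 UMIs. CXCL12-abundant reticular cells, for which CARs is named, are known for supporting hematopoietic stem cells, and no code in the younger libraries carried this name. In ECs Fgf7 had 0 UMIs at E16.5 and P0 and 2 at E18.5, and in the adult it had 3 in AECs and 14 in SECs.

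Within the 359 CARs cells, 240 had an Fgf7 UMI and 253 an Fgfr2 UMI, with 178 cells holding both against 169.1 if the genes were independent. Ligand and receptor transcripts were thus seen in the same cells, close to the number independence gives. For Fgfr1 the corresponding numbers were 236 cells with a UMI and 155 with both, against 157.8.

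Fgf18 was led by F3 at E16.5 (63.0 CPM), F3i and F2 at E18.5 (42.8 and 41.5, with overlapping counting intervals), F2 at P0 (50.9) and F10 and F8 in the adult (39.9 and 37.6, with overlapping counting intervals). Adult F12 had 35.0 CPM, but 1 of its cells held 35 of its 81 Fgf18 UMIs, which the counting interval does not reflect. Unlike Fgf7, it was also found in C2 codes, at 16.3 CPM in C2 at E16.5, 27.8 in C2i at E18.5 and 35.2 in C2i at P0. ECs had 6.89, 10.6 and 1.64 CPM of Fgf18 from E16.5 to P0, on 6, 10 and 4 UMIs. Adult SECs had 15.6 CPM, with 18 of their 29 UMIs in 1 cell. C5, where Fgfr3 peaked, had 0.560, 0.886 and 2.96 CPM of Fgf18 from E16.5 to P0. C-numbered codes held 21.8%, 38.2% and 45.2% of Fgf18 UMIs from E16.5 to P0 and 4.32% in the adult. Adult CARs held 0.501% of the library's Fgf18 UMIs.

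Fgf2 was spread over both kinds of code, with its top in F2 at E16.5 (31.7 CPM), C2i at E18.5 (45.3), C2i at P0 (47.1) and F10 in the adult (50.3). Endothelial codes held 3.19 to 12.4 CPM of Fgf2. Over the 65 groups, Fgf2 went with Fgf18 (rho 0.68) and Fgfr1 (0.63), and Fgfr3 ran weakly against Fgf7 (-0.35).

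Among the other listed ligands, Fgf9 was 0.992, 1.42, 2.02 and 16.8 CPM in E16.5, E18.5, P0 and adult stroma, and F10 and F12 held 56.0% and 26.3% of the adult UMIs. The tendon genes Tnmd and Scx were in 95% and 84.4% of F12 cells, and in 29.4% and 47.1% of F10 cells. The feedback gene Spry4 peaked apart from the receptors at E18.5 and P0, but not in the adult. It was highest in P2 at P0 (88.2 CPM) and E18.5 (87.8), codes with the pericyte gene Rgs5 in 93.1% and 85.5% of cells. In the adult CARs led for Spry4 (67.7), the code that also led for Fgfr2.

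The genes most like each receptor or ligand were taken as those with the highest Spearman's rho of CPM over the 65 stromal groups among 13122 genes with enough counts. For Fgfr3 they were Chst11 (0.94), Ncmap (0.93) and Acan (0.93), of which Chst11 encodes a chondroitin sulfotransferase and Acan the main cartilage proteoglycan. For Fgfr2 they were Kazald1 (0.81), Lbhd2 (0.80) and P2ry10b (0.80). For Fgfr1 they were Boc (0.82), a hedgehog co-receptor, Ltbp3 (0.78) and Cpq (0.77), and for Fgf2 Boc again (0.77), Col8a2 (0.77) and Reck (0.71). Fgf18 was most like the fibrillar collagen genes Col5a2 (0.84) and Col5a1 (0.83) and Thbs2 (0.82), and Fgf7 most like Fmo1 (0.82), Svil (0.80) and Svep1 (0.80).

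The CD140a antibody tag gave a division of stromal cells that did not use mRNA. CD140a is the PDGFRA protein, a mesenchymal progenitor and fibroblast marker, and cells were called positive at a centered log-ratio above 1 (949 to 2331 cells per library). The lowest CD140a tag count of a positive cell was 10, 4, 7 and 10 from E16.5 to adult, so the cut was low and differed by stage. Fgf7 and Fgf18 were higher and Fgfr2 and Fgfr3 lower in CD140a-positive cells, with positive and negative sums compared within each of the 4 libraries (edgeR, library as a block). Because each library is another stage, this test carries the spread of the difference between stages, not between repeat pools. Of 15715 genes tested, 13.9% were called higher in positive cells and 17.4% lower, 31.4% in all. Pdgfra mRNA was higher in positive cells in all 4 libraries, at 141 to 187 CPM against 25.8 to 72.1. Cartilage genes moved with this division, with log2 ratios of positive over negative cells of -2.45, -1.82, -1.47 and -1.13 for Acan and -2.59, -1.85, -1.51 and -1.39 for Col2a1 from E16.5 to adult, beside -2.55, -1.76, -1.45 and -1.22 for Fgfr3. The fibroblast matrix gene Dcn had ratios between 0.67 and 2.08. The part of these cell mixtures in the FGF differences was not tested. Of the positive cells, 79.2% to 91.0% were in F-numbered codes, so this division and the codes are not independent views.

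Fgf18 was 36.0, 37.2, 32.5 and 32.2 CPM in positive cells from E16.5 to adult and 6.74, 11.1, 15.8 and 13.7 in negative cells (log2 fold change 1.46, SE 0.24, adjusted p = 0.0114, edgeR). Fgfr3 was 14.8, 35.3, 27.3 and 54.3 in positive and 87.0, 120, 74.5 and 127 in negative cells (-1.88, SE 0.23, adjusted p = 0.0066). Fgfr2 was 38.0, 47.9, 52.0 and 24.6 in positive and 61.8, 65.6, 88.4 and 46.8 in negative cells (-0.86, SE 0.07, adjusted p = 0.00363). Every library had the same direction for these genes. Without the E18.5 library the adjusted p rose to 0.068 for Fgf18 and 0.051 for Fgfr3.

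Fgf7 was far higher in positive cells of the 3 younger libraries and close in adult cells, a difference between stages that was not tested. From E16.5 to P0 it was 17.5, 27.5 and 22.2 CPM in positive and 1.53, 1.49 and 2.64 in negative cells, and adult cells had 18.9 and 15.1. The log2 fold change over the 4 libraries was 2.67 (SE 0.67, adjusted p = 0.0345, edgeR), and the call was lost without E16.5 (adjusted p = 0.13), E18.5 (0.14) or P0 (0.14). With 1 library left out the log2 fold change was 2.21 to 3.45. Only 3.90% of adult CARs cells, the code with the most Fgf7 per UMI, were CD140a-positive by tag, although Pdgfra mRNA was detected in 73.3% of them. The division itself differed by stage. From E16.5 to adult the tag called 72.2%, 49.7%, 48.3% and 26.1% of cells in F-numbered codes positive. The Pdgfra log2 ratio of positive over negative cells was 2.45, 2.07, 1.94 and 1.34. Fgfr1 (-0.05, adjusted p = 0.65) and Fgf2 (0.14, adjusted p = 0.50) were not called, and Fgf3 had too few counts to test. Of the listed pathway genes, 27 were tested, 6 were higher, among them the ligands Fgf10 (2.31) and Fgf16 (2.34), and 3 were lower, Fgfr4 (-2.38), Fgfrl1 (-1.55) and Etv5 (-0.84). These 9 of 27 are close to the 31.4% called over all genes tested.

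**Figure D4:**
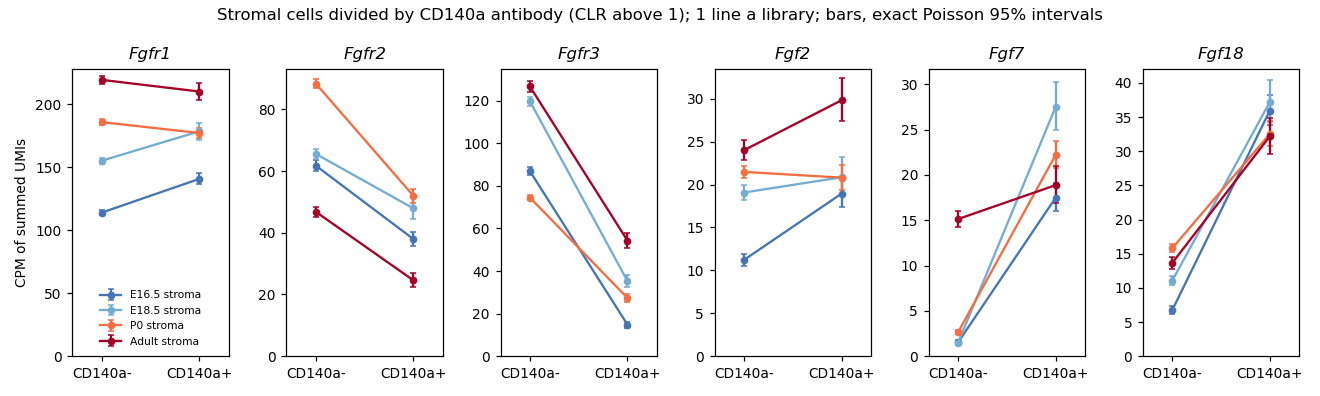
CPM in CD140a-negative and CD140a-positive stromal cells, with 1 line per library and bars for exact Poisson 95% intervals. Fgf18 rises and Fgfr2 and Fgfr3 fall in all 4 libraries, while Fgf7 rises steeply in the 3 fetal and newborn libraries and only from 15.1 to 18.9 in the adult one.

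For CD31, the endothelial adhesion protein PECAM1, positive cells were a mixture, with endothelial codes making up 9.54%, 19.9%, 13.6% and 47.2% of them from E16.5 to adult. The lowest CD31 tag count of a positive cell was 5, 4, 8 and 13 over the same stages. Of 15630 genes tested, 3.9% were called higher in positive cells and 0.397% lower, 4.3% in all. The rarity of lower calls depends on the tool, with 610 higher and 62 lower by edgeR and 1257 and 778 by DESeq2. Fgfr2 was lower in CD31-positive cells, at 43.9, 40.8, 64.4 and 25.5 CPM against 57.2, 64.8, 83.8 and 45.7 (log2 fold change -0.69, SE 0.12, adjusted p = 0.035, edgeR). The call was lost without the E18.5 (adjusted p = 0.16) or the P0 library (0.075). In the same division the log2 ratios were -0.11, -0.55, -0.30 and -1.79 for Col2a1, -0.0078 to -1.36 for Acan and 6.06 to 7.09 for the endothelial gene Cdh5, and their part in the Fgfr2 difference was not tested. The other 5 genes tested were not called by edgeR, with Fgfr1 at -0.38 (0.056), Fgf2 at -0.36 (0.054), Fgfr3 at -0.59 (0.20), Fgf7 at 0.26 (0.54) and Fgf18 at 0.02 (0.96). DESeq2 called Fgfr1 (adjusted p = 0.000507) and Fgf2 (0.0036) lower as well, and at a log-ratio above 1.5 edgeR called Fgfr1 (0.0075), Fgf2 (0.0099) and Fgfr3 (0.016) lower. Both Fgfr1 and Fgf2 were also called by edgeR without the filter on low counts (adjusted p = 0.015 and 0.037) or without the adult library (0.022 and 0.034), and Fgfr1 with RLE size factors (0.042). Of 26 pathway genes tested 3 were higher, Dusp6 (0.83), Il17rd (0.56) and Spry4 (0.48), and 2 were lower, Fgfr4 (-0.92) and Etv5 (-0.51), beside 4.3% called over all genes tested.

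UMIs of all 3 receptors were found in 16.9%, 28.7%, 21.9% and 13.1% of cells from E16.5 to adult, and of none in 17.3%, 10.6%, 20.4% and 15.4%. Depth moved with these shares, since cells with all 3 had medians of 16764, 20183, 19522 and 19014 UMIs and cells with none had 10839, 7863, 1373 and 5885, and its part in the shares was not tested. Free RNA was not separated either, and the endothelial codes had 16.8% to 51.3% of the library level of Fgfr1, Fgfr2 or Fgfr3. Within codes, pairs of receptors were found together 1.01 to 1.10 times as often as independence would give, in each of the 12 combinations of pair and library.

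In HPs, the FGF transcripts were few and uneven between codes. Fgf3 was highest in Eos/Bas2 at E18.5 (33.0 CPM), Bas2 at P0 (18.0, with an interval that overlapped those of Eos/Bas3, TCell5, EosP and Mast4), Eos/Bas4 among adult codes (59.1, 95% interval 47.8 to 72.4), and TCell3 and TCell2 in the second E16.5 library (37.0 and 35.2). At P0, EosP had 10.8 CPM from 20 UMIs and Mast4 had 5.27 from 1 UMI. Eos/Bas1 at E16.5 had 24.2 CPM and Eos/Bas3 at P0 had 16.2. Mast3 at E18.5 had 20.9 CPM, from 32 of its 162 cells. Adult T/NK had 18.0 CPM, but from 9 UMIs in 5 cells, and TCell5 had 16.1 at P0 from 12 UMIs in 4 cells and 11.8 at E18.5 from 13 UMIs in 5 cells, 1 of which held 7. The single codes Eos/Bas2, Bas2 and Eos/Bas4 held 43%, 47.2% and 56.0% of the Fgf3 UMIs of their libraries, while Mast3 held 20.5% at E18.5 and MegP1 18.9% at P0. In B-cell codes, the class used as background, Fgf3 had 2, 0 and 3 UMIs in Bcell1 at E16.5, E18.5 and P0, and 0 in adult Bcell3 and Bcell4. A UMI of Fgf3 was found in 49.0% of Eos/Bas2 cells at a median of 35959 UMIs and in 27.8% of Eos/Bas4 cells at 7604, against 0 of 152 Bcell1 cells at E18.5 at 22806.

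The E16.5 HP libraries differed in Fgf3, at 2.15 and 10.7 CPM. T-cell codes made up 3.21% of cells in the first and 45.1% in the second. Without the T-cell codes the values were 1.55 (95% interval 0.958 to 2.36) and 2.12 (1.72 to 2.58), with overlapping intervals. In codes shared by the pair, Fgf3 was 0.259 and 2.43 CPM in Mono/Mast and 0.340 and 1.48 in Mast2i. It was 0.503 and 0.607 in Mast2ii and 2.46 and 1.54 in Mast1, on 1 to 20 UMIs each. The part of the T-cell codes in the difference between the libraries was not tested. Within the second library, TCell2 and TCell3 held 398 and 489 Fgf3 UMIs, while TCell1, TCell4, TCell5 and TCell6 held 33, 4, 5 and 0. Fgfbp1, which encodes a secreted FGF-binding protein, had 3 and 2 UMIs in TCell2 and TCell3, 242, 181 and 252 in TCell1, TCell4 and TCell6, and 0 in TCell5, which was thus low in both genes. Cd3e was detected in 65.4% of TCell2 and 78.2% of TCell3 cells and in 98.7% to 100% of TCell1, TCell4 and TCell6 cells, and in 36.0% of TCell5 cells. No other HP library held a single Fgfbp1 UMI.

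Fgfr1 in HPs was led by Bas1 at E18.5 (141 CPM, 262 of 653 UMIs in the library), with Mono1ii at 55.9. At P0 the leading codes were Eos/Bas3 (91.4), Mast3 (63.5) and DC3 (44.3), and at E16.5 Mast1 (35.6 and 22.0 in the 2 libraries). Mcpt8, a basophil protease gene, was in 62.8% of Bas1 cells. B-cell codes with counts had 1.24 to 1.70 CPM of Fgfr1. In adult HPs, Fgfr1 had 46 UMIs in 5985 cells, 10 of them in Mono6. A code named Stroma in the adult HP library, with 56 cells at a median of 555 UMIs, held 4 of the 46 and all 4 Fgfr2 UMIs of that library. Without those cells the stroma over HP log2 fold changes were 4.94 for Fgfr1 and 9.96 for Fgfr2, and all 7 genes were called.

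Fgf2 in E16.5 HPs was highest in Mast1, at 4.91 and 4.32 CPM in the 2 libraries, with 57.1% and 61.5% of the UMIs. Fgfr3 at E18.5 and P0 had its highest HP level in HSPC2, which held 17 of 24 UMIs at E18.5 and 12 of 29 at P0, in 3.61% and 1.59% of its cells. The B-cell codes of these libraries had 0 UMIs of Fgfr3.

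**Figure D5:**
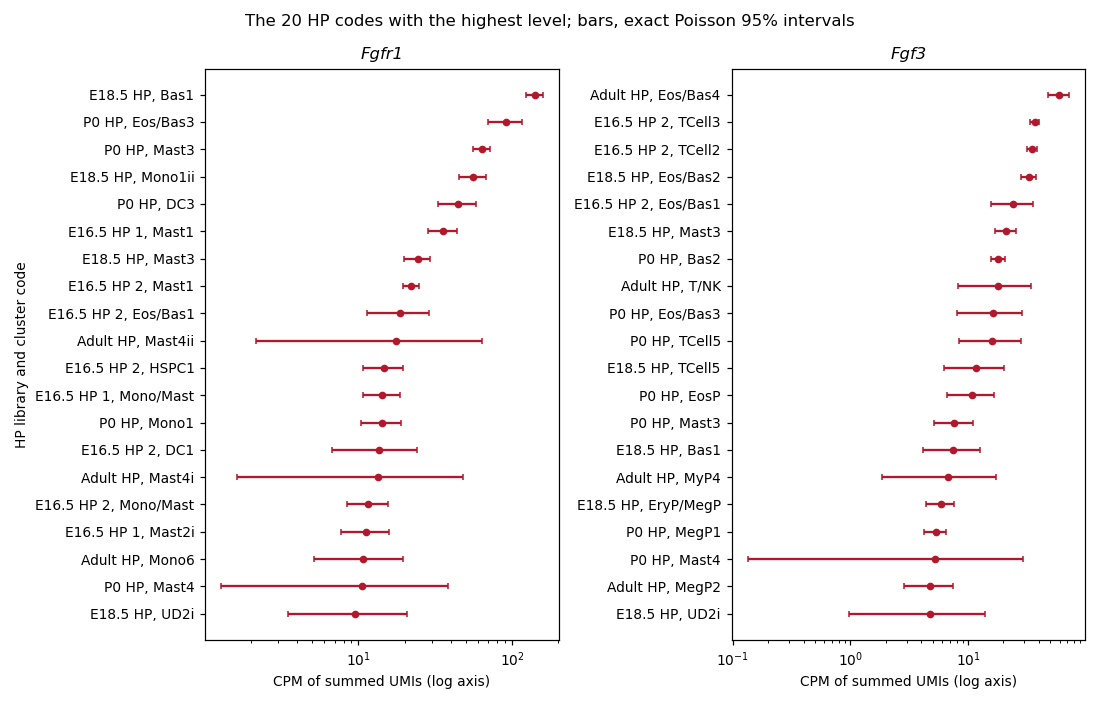
The 20 HP codes, over 5 libraries and leaving out the adult code named Stroma, with the highest CPM of Fgfr1 on the left and Fgf3 on the right, on log axes with exact Poisson 95% intervals. Bas1 at E18.5 leads for Fgfr1 at 141, and adult Eos/Bas4 and the E16.5 codes TCell3 and TCell2 lead for Fgf3.

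Between HP stages, no gene of the 7 was called against E16.5 by edgeR, with 5 tested and Fgf7 and Fgf18 too low. Over all 16114 genes tested, 0.00621% were called at E18.5, all of them higher, 0.292% at P0 (0.168% higher and 0.124% lower), and 2.35% for adult HPs (1.35% higher and 0.993% lower). That balance depends on the tool, since 27 genes were higher and 20 lower at P0 by edgeR but 187 and 371 by DESeq2, and for adult HPs 218 and 160 by edgeR but 425 and 708 by DESeq2. At an unadjusted p under 0.05 the numbers of genes were 1047, 1368 and 2462. Adult Fgfr1 came nearest, at 0.777 CPM against 18.3 and 7.70 (log2 fold change -3.86, SE 0.83, adjusted p = 0.0725, edgeR). DESeq2 called it (-3.92, adjusted p = 1.33e-05), as did edgeR with no filter on low counts (adjusted p = 0.000126). Fgf2 was -3.19, -2.45 and -3.15 for E18.5, P0 and adult HPs (adjusted p = 0.67, 0.64 and 0.28, edgeR). At an unadjusted p under 0.05 the counts among the 5 genes were 1, 0 and 2 over the same stages, and DESeq2 called 0, 0 and 1. Only the 2 E16.5 libraries measure the spread here, and they differ in their share of T-cell codes. The study reports that its single-cell experiments were not repeated, so whether this pair came from separate pools of mice is not known.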

How the data were processed

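Per the labels and the study's methods, the authors ran Cell Ranger 3.1.0 on mm10 and R 4.0 with Seurat 3.1.5, removed cells with the most genes or UMIs as putative doublets and cells with high mitochondrial share or few UMIs as putatively dying, and deposited raw UMI counts per gene and cell, antibody-tag counts and cell annotations. The methods also state that blood cells contaminating the stroma were removed, a step not described for HPs. The deposited antibody values are raw tag counts, from which centered log-ratios were computed here, and cells above 1 were called positive. Of the deposited cell table, 12 columns were not used. The 7 genes and the pathway list were chosen with earlier results of these data known. UMI counts were summed per library, code or antibody class (numpy 2.4.6, scipy 1.17.1) and given as CPM with exact Poisson 95% intervals, which cover counting error only. Comparisons used edgeR 4.0.16 (TMM factors, quasi-likelihood test), with DESeq2 1.42.0 as an alternative, p-values adjusted over all genes tested, SE from the F statistic. Named genes were the 7, the pathway list, markers and the 3 most alike per gene. For stroma against HPs, the p-values carry the spread between stages of the difference and the spread of the E16.5 HP pair. For the antibody comparisons they carry the spread between stages of the difference between antibody classes. Between HP stages they rest on the E16.5 HP pair alone. None of them measures the spread between repeat pools of stroma.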

Additional observations from a re-analysis of the deposited data

Results flagged for a closer look

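For 5 pairs of gene and antibody, the ratio between antibody-positive and antibody-negative stromal cells differed in sign between stages. None of these pairs was called over the 4 libraries by edgeR at a log-ratio above 1. At the higher log-ratio used as an alternative, edgeR called Fgfr3 lower in CD31-positive cells (adjusted p = 0.016). The differences between stages were not tested, because each stage is 1 library. The values are log2 ratios of CPM in positive over negative cells, in stage order from E16.5 to adult. For Fgfr1 and CD140a they were 0.30, 0.20, -0.069 and -0.062. For Fgf2 and CD140a they were 0.76, 0.13, -0.046 and 0.31. For Fgfr3 and CD31 they were 0.021, -0.50, -0.086 and -1.34. For Fgf7 and CD31 they were 0.41, 1.25, 0.28 and -0.26. For Fgf18 and CD31 they were 0.23, 0.12, -0.040 and 0.31. Many of these signs are within counting error, since the intervals of positive and negative cells lay apart only for Fgfr1 at E16.5, E18.5 and P0, Fgf2 at E16.5 and in the adult, Fgfr3 at E18.5 and in the adult, Fgf7 at E18.5 and Fgf18 in the adult. By that measure only Fgfr1 and CD140a had signs of both kinds.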

How the results depend on the processing

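All 7 calls of stroma against HPs kept their direction and stayed past the threshold under the other size factors, DESeq2, no filter, cells of at least 1000 UMIs, no stage term, adult HPs without the cells coded Stroma (chosen after seeing the data) and each library left out. Some sizes moved by over 1.5 times. For Fgf2 the log2 fold change (6.24) was 5.28 with no stage term and 7.16 without E16.5 stroma, that of Fgf7 (7.64) 8.54 without E16.5 stroma, and that of Fgfr1 (4.93) 4.14 without adult HPs, 4.16 without adult stroma and 5.64 without E16.5 stroma. The HP stage counts did not hold still. Against 1, 47 and 378 genes called for E18.5, P0 and adult HPs, DESeq2 called 342, 558 and 1133 and no filter 485, 713 and 1515 (most of them lower under both), and RLE size factors called 35 (21 higher and 14 lower, against 1 and 0) at E18.5 and 78 at P0. Of the 7 genes, DESeq2 and no filter each called 1 in the adult against 0. Without the first E16.5 HP library the Fgfr1 log2 ratio at E18.5 turned to 0.24 (-0.95 without the second). For adult HPs the Fgfr1 log2 ratio ranged from -4.35 to -3.15 with 1 of that pair left out. Fgf3 for E18.5, P0 and adult HPs turned to 1.53, 0.73 and 0.56 without the second library and was -0.84, -1.62 and -1.79 without the first, with no test left. For CD140a, leaving out 1 library moved the 4928 calls to between 775 (without E18.5) and 7465 (without the adult), with 1660 without E16.5 and 793 without P0, moved the 4 calls among the 7 genes to between 1 and 4, and gave Fgfr1 values of -0.077 (without E16.5) to 0.032 (without the adult), with 0.0068 without P0. For CD31, the 672 calls became 2961 at a log-ratio of 1.5, 2035 with DESeq2, 1398 with no filter (1694 higher and 1267 lower, 1257 and 778, and 742 and 656, against 610 and 62) and 156 (without E18.5) to 1421 (without the adult) with 1 library left out (191 without P0). The 1 call among the 7 genes, Fgfr2, became 4, 3 and 3 under those settings, 2 with RLE size factors and 0 to 3 with 1 library left out. At 1.5, Fgf7 turned to -0.22 and Fgf18 to -0.26, and Fgf18 was -0.028 with no filter and -0.035 (without E16.5) to 0.073 (without P0) with 1 library left out, -0.025 without the adult. The cause was not tested. The code with the most Fgf18 changed at E18.5 (to F2) and in the adult (to F8), that with the most Fgf2 at P0 (to UD4), and in HPs that with the most Fgf3 at P0 (to Eos/Bas3) and the most Fgfr1 in the second E16.5 library (to Eos/Bas1), when cells were weighted equally. Under that weighting 33 of 63 library CPM values moved beyond their counting intervals, by over 1.5 times for Fgfr1 in E18.5, P0 and adult HPs (to 25.1, 9.85 and 2.75), for Fgfr2, Fgfr3 and Fgf18 in adult HPs (to 1.01, 0.333 and 0.289), and in adult stroma for Fgfr3 (to 70.6) and Fgf7 (to 25.6). No paired analysis was possible by replicate number, because only the E16.5 HP libraries are numbered. The antibody comparisons are paired by library, and stroma against HPs had stage as a term. Low counts limit the values of Fgf7, Fgf18, Fgfr2 and Fgfr3 in HPs and of Fgf3 in stroma, where libraries hold few or no UMIs.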
